A study of Mus musculus with 12 samples.

Results

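Mecom and Hlf encode transcription factors of the blood stem cell, and their promoters were among those whose chromatin contacts were mapped by Capture-C in fetal and adult mouse haematopoietic stem cells (HSCs). In Capture-C, chromatin is fixed, cut with DpnII and ligated, and oligonucleotides then pull out the joined pieces that include a chosen promoter, so that the distal regions it touched can be counted. Every listed contact of a promoter named Mecom or Hlf, with or without the number that marks an alternative promoter, was taken. This gave 151 of the 89545 listed contacts, at 5 captured promoter fragments: Mecom and Mecom_1 with 78 contacts, and Hlf, Hlf_1 and Hlf_2 with 73. All 5 fragments belong to the first of the 2 capture batches, which holds 49944 contacts of 1952 promoters.

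Fetal HSCs came from livers at embryonic day 14.5 and adult HSCs from bone marrow of mice aged 6 to 8 weeks, both of the strain B6129SF1 and without any genetic change or treatment in the labels. Both were sorted as cells lacking lineage markers and CD135 and carrying Sca1 and cKit, a gate that also holds multipotent progenitors beside the stem cells. Each population had 4 libraries, 2 per batch, and how many animals were pooled is not stated in the labels. The deposited table gives 1 value per population and batch, so nothing here carries an error between libraries and no test of fetal against adult cells was possible. The 95% intervals given (exact, Clopper-Pearson) describe counting error alone and treat bins as independent, which neighbouring bins are not. The 4 HPC7 samples of the series (2 WT and 2 TCF3KO) were not analysed here.

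The gate was read against markers through the deposited expression values (FPKM, fragments per kilobase of transcript, scaled to depth) of genes whose promoters were captured. The stem and progenitor markers Kit, Cd34 and Procr each stood at 8.94 FPKM or more in either population. Flt3, which encodes the sorted-away CD135, was listed at 6.20 (fetal) and 3.81 (adult) FPKM. Erythroid and macrophage markers, 8 of the 14 markers of other cells, summed to 51.7 FPKM (fetal) and 7.77 FPKM (adult), and 4 of the 8 come from the second batch. All 8 were higher in fetal cells. The highest was Epor, at 15.8 and 6.22 FPKM, and Marco, a macrophage gene, stood at 7.99 and 0.00996 FPKM. The 6 markers of hepatoblasts, lymphocytes and stroma were not analysed here. The part of such cells in the fetal values below was not tested.

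MECOM is a zinc finger factor of the PRDM family. Its locus makes a long protein with a PR domain (MDS1-EVI1) from an upstream promoter and a short protein without it (EVI1) from promoters further inside the gene. It is needed to maintain HSCs, and its activation by rearrangement drives myeloid leukaemia. HLF is a basic leucine zipper factor of the PAR family, abundant in HSCs and lost as they differentiate, and is known in leukaemia as a fusion partner of TCF3.

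The 250 bases before each RefSeq start of both genes are shown because the contacts start from promoters of these genes. They are written 5′ to 3′ from the minus strand of GRCm38, the build of the RefSeq promoter table, in which 3 entries matched the 2 genes. The contact table is in mm9, and no coordinate was carried from one build to the other. Which start each captured fragment holds was therefore not settled. Capitals mark every match, on either strand, to 7 motifs. GATC is the site of DpnII, AGATAA a site of GATA factors, CCGGAA the core site of ETS factors and TGTGGT that of RUNX factors. GACAAGAT is a core bound by the zinc fingers of MECOM, TTACGTAA the site of PAR bZIP factors such as HLF, and TGACGTCA the cyclic AMP response element.
Mecom start 1, chr3:30509760-30510009: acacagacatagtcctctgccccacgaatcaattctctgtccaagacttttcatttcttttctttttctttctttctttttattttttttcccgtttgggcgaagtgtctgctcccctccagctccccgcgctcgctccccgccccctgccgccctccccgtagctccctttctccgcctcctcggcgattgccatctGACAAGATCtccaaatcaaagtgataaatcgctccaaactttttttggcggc
Mecom start 2, chr3:30013205-30013454: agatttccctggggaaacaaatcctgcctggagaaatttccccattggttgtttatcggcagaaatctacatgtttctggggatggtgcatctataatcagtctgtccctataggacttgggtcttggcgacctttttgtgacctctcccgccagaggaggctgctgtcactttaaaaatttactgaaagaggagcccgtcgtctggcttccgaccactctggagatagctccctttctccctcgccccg
Hlf start 1, chr11:90390918-90391167: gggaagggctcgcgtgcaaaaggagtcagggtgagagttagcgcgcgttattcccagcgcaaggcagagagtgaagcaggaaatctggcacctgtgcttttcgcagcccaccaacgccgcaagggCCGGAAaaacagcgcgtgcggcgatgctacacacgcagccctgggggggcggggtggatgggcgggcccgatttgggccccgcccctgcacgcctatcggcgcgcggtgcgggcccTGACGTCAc

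At Mecom start 1 the letters GACAAGAT began 52 bases before the start and overlapped a GATC that began 47 bases before it. GACAAGAT was found in 0.597% of 32851 mouse promoter windows of this length, and GATC in 41.9%. Mecom start 2 held none of the 7 motifs. The Hlf window held TGACGTCA, 9 bases before the start, which 1.55% of windows held, and CCGGAA, 125 bases before it, which 12.0% held. None of the 3 windows held AGATAA, which 9.99% of all windows held. The same was true of TGTGGT (14.0%) and of TTACGTAA (0.113%). GC content was 50.8% and 50.4% at the Mecom starts and 67.2% at Hlf, against a median of 52.4% over all windows. These matches describe letters in a window and show no binding.

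The authors' deposited table marked none of the 5 promoters as differentially expressed, against 35.5% of first-batch promoters. Hlf stood at 23.5 FPKM (fetal) and 35.0 FPKM (adult). Hlf_1 stood at 17.7 and 25.7 FPKM, and Hlf_2 at 24.9 and 36.9 FPKM. The adult level of Hlf was thus 1.45 to 1.48 times the fetal level at each of its transcripts, and 51.3% of first-batch promoters were higher in adult cells. Mecom stood at 9.84 FPKM (fetal) and 10.7 FPKM (adult), and Mecom_1 at 10.3 and 11.1 FPKM, ratios of 1.08 and 1.07. On this per-length scale Hlf transcripts exceeded Mecom transcripts in both populations. In adult cells Hlf lay at percentile 84.5 of first-batch promoters and Mecom at percentile 52.1. Transcripts of a gene share reads, so their values are not separate measurements.

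Of 22 other stem cell transcription factors, 20 had captured promoters, 29 in number. The authors' deposited table marked 11 of these genes, 8 higher in adult and 3 higher in fetal cells. By promoter this was 17 of 29 (58.6%, against the 35.5% above), and the median log2 ratio of fetal to adult (FPKM + 1) was -0.46, against -0.04 over the batch. Gata2, a zinc finger factor required for HSC survival, had 21.9 FPKM (fetal) and 57.3 FPKM (adult), the adult-higher direction that Hlf showed with a smaller ratio. Gfi1, a repressor that restrains HSC division, had 11.0 and 1.54 FPKM, the opposite direction. Prdm16, the PRDM factor closest to MECOM, had 3.57 FPKM (fetal) and 6.69 FPKM (adult) and 39 called contacts in each. Dbp, Tef and Nfil3, of HLF's family or binding its sites, were not analysed here. Among textbook partners and targets of MECOM, the authors' deposited table marked Gata2 and Erg as differential with the higher value in adult cells, and Hdac1 and Suv39h1 with the higher value in fetal cells. These lists were chosen with earlier results of the data known, and nothing is read from their shares about Mecom or Hlf.

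The comparison of contacts asked whether the promoters met different regions in fetal and adult cells. A contact pairs a promoter fragment with a distal bin of 2 kb, and it counts as called in a population where the authors' score is above 0 (1.3 or more in this batch). Mecom (chromosome 3, 29896340 to 29897102) had 51 listed contacts, of which 28 were called in fetal cells, 54.9% against 64.6% over the batch. In adult cells 31 were called, 60.8% against 61.1%. Only 8 were called in both, 15.7% (7.02 to 28.6) against 25.7% over the batch, a difference within counting error. Matching bins up to 5 kb apart gave 22 of the 28 fetal calls an adult partner, so the share depends on exact bins. This matching was not run over the batch, so whether 22 is many for lists this dense is not known. The remainder comprised 20 fetal-only contacts (39.2%, against 38.9%) and 23 adult-only contacts (45.1%, against 35.4%). The shared contacts made up 28.6% of the fetal list (13.2 to 48.7) and 25.8% of the adult list (11.9 to 44.6), against 39.8% and 42.1% over the batch.

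Mecom_1 (30136933 to 30137626) lies 239.8 kb from the Mecom fragment on the higher-coordinate side. It had 27 listed contacts, 16 fetal and 15 adult, with 4 called in both (14.8%, 4.19 to 33.7). Its list split into 12 fetal-only (44.4%, against 38.9%) and 11 adult-only contacts (40.7%, against 35.4%). The interval of the contacts called in both included the batch's share of 25.7%, as it did at Mecom. Matching bins up to 5 kb apart raised the 4 to 9, again without a batch value to set it against.

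The Hlf fragments lie side by side on chromosome 11, with Hlf_2 at 90249177 to 90249577, Hlf at 90249659 to 90251146 and Hlf_1 at 90251410 to 90253756. Hlf had 19 listed contacts, 16 fetal and 10 adult, of which 7 were shared (36.8%, 16.3 to 61.6). Hlf_2 had 17 listed contacts, 12 fetal and 8 adult, of which 3 were shared (17.6%, 3.80 to 43.4). Hlf_1 had 37 listed contacts, 21 fetal and 27 adult, of which 11 were shared (29.7%, 15.9 to 47.0). All 3 intervals included the batch's share of 25.7%. Fetal calls made up 84.2% of the list of Hlf, 70.6% at Hlf_2 and 56.8% at Hlf_1, against 64.6% over the batch. Adult calls made up 52.6%, 47.1% and 73.0%, against 61.1%. The intervals of these shares included the batch's shares as well. Hlf_1 is the longest of the fragments at 2346 bp, against 1487 bp for Hlf and 400 bp for Hlf_2. At the authors' threshold Hlf and Hlf_2 leaned to fetal cells in call numbers, and Hlf_1 to adult cells. The log2 ratio of fetal to adult (calls + 1) was 0.63 at Hlf and 0.53 at Hlf_2, but -0.35 at Hlf_1. Those values lay at percentiles 82.1, 78.0 and 26.5 of the first-batch promoters. The opposite lean was lost when called bins up to 5 kb apart were merged, which left 9 fetal and 7 adult contacts at Hlf, 12 and 11 at Hlf_1, and 9 and 5 at Hlf_2. The fetal lean of Hlf_2 was not kept under a stricter score threshold of 2.3. There Hlf_2 had 5 fetal and 6 adult calls, while Hlf had 9 and 7 and Hlf_1 10 and 15.

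**Figure D1:**
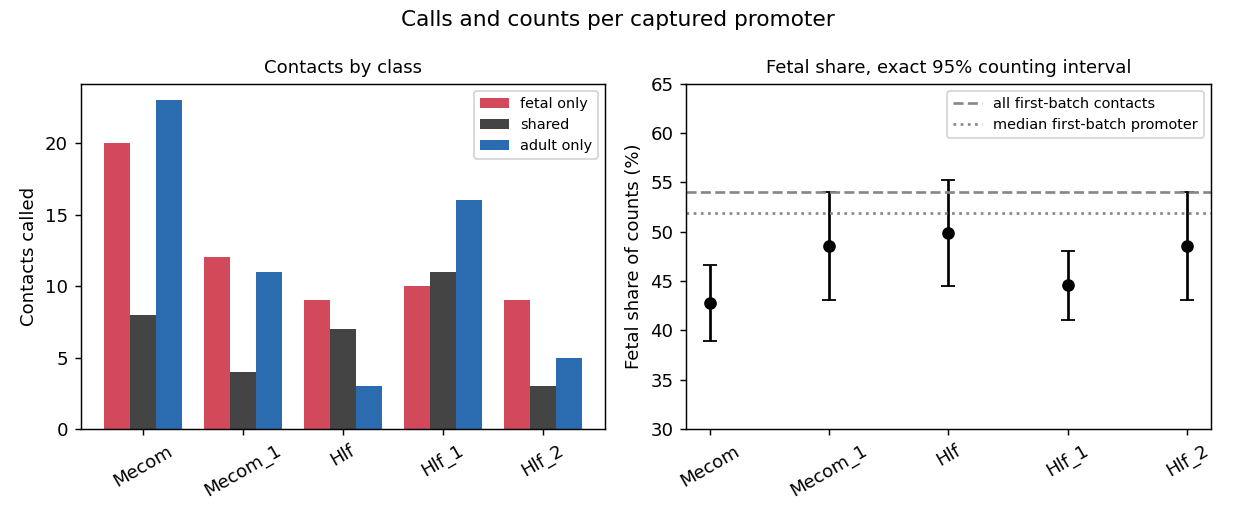
Left, contacts called in fetal cells only, in both populations or in adult cells only, for each captured promoter (vertical axis, number of contacts). Right, the fetal share of counts over the listed contacts of each promoter in percent, with its exact 95% counting interval; the dashed line is the share over all first-batch contacts within a chromosome (54.0%) and the dotted line the median promoter (51.9%). Mecom (42.8%) and Hlf_1 (44.6%) lie below both lines.

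Counts behind the calls were low. A called contact of Mecom rested on a median of 7 fetal or 9 adult counts, and one of Hlf_1 on 10 fetal or 12 adult counts. For fetal-only contacts of Mecom the medians were 6.5 (fetal) and 3.5 (adult) counts, and for its adult-only contacts 3 and 9. Of the 20 fetal-only contacts 13 scored within 1 unit of the calling threshold, as did 14 of the 23 adult-only contacts. For fetal-only contacts of Hlf_1 the medians were 8.5 and 7 counts, and for its adult-only contacts 5 and 11.

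Summed over listed contacts, counts leaned to adult cells at Mecom and Hlf_1. Mecom had 281 fetal and 376 adult counts, a fetal share of 42.8% (39.0 to 46.7). The same share was 54.0% over all first-batch contacts within a chromosome, and the median promoter with at least 15 listed contacts had 51.9% (quartiles 49.3 and 54.5, 1114 promoters). Among those promoters Mecom lay at percentile 3.01. Hlf_1 had 356 fetal and 443 adult counts, a share of 44.6% (41.1 to 48.1), at percentile 5.07. Mecom_1 had 163 and 173 counts (48.5%, 43.1 to 54.0), Hlf 174 and 175 (49.9%, 44.5 to 55.2) and Hlf_2 164 and 174 (48.5%, 43.1 to 54.0), at percentiles 19.2, 29.4 and 19.3. All 5 shares lay below that of the median promoter, but the intervals of Mecom_1, Hlf and Hlf_2 included 51.9%. Without values per library these leans could not be set against variation between libraries.

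Mecom reached only to one side and unusually far. All 51 of its contacts lay on the higher-coordinate side, which is upstream for a gene on the minus strand, as RefSeq gives Mecom in GRCm38. Of 908 first-batch promoters with at least 20 listed contacts, 56 (6.17%) had all their contacts within the chromosome on 1 side. The nearest contact was 96.3 kb away and the farthest 602 kb. The median distance was 408 kb in fetal cells (exact interval of the median 318 to 486) and 436 kb in adult cells (312 to 486), at percentiles 94.8 and 95.3 of the batch, whose median promoter had 173 and 152 kb. Fetal and adult medians of Mecom differed by less than these intervals. Mecom_1 reached both ways, with 15 contacts on the higher and 12 on the lower side. Its fetal calls were mostly on the higher side, 11 against 5, and its adult calls on the lower side, 9 against 6, with median distances of 231 kb (149.7 to 276) and 178 kb (143.7 to 238).

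The highest adult scores of Mecom lay in a block between 504 and 526 kb from the fragment, which also held its highest fetal score and weaker contacts. The second highest fetal score, 4.71, lay outside it at 388 kb. The bin at 30412001 to 30414001 had 19 adult and 5 fetal counts, and its adult score of 11.0 was the highest of the gene with that of the next bin. That next bin, 30414001 to 30416001, had 19 adult and 10 fetal counts and was called in both populations. Both bins carried the active promoter mark in adult cells only. At 30406001 to 30408001, a bin marked as active promoter in both populations and as active enhancer in fetal cells, the counts were 17 adult and 11 fetal, with scores of 8.96 and 6.34, the latter the highest fetal score of Mecom. In adult cells an unbroken run of 6 called bins covered 30406001 to 30418001, and in fetal cells the longest run was of 4 bins, 30404001 to 30412001. The farthest adult contact closed the block at 526 kb (30422001 to 30424001, 11 adult and 2 fetal counts). The farthest fetal contact lay beyond it at 602 kb, in a bin marked as active promoter in both populations (30498001 to 30500001, 6 fetal and 2 adult counts).

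From 500 kb outward the Mecom contacts held 77 fetal and 136 adult counts, a fetal share of 36.2% (29.7 to 43.0). All first-batch contacts from 500 to 700 kb had 52.5%. Between 300 and 400 kb the lean was turned, with 64 fetal and 44 adult counts (59.3%, 49.4 to 68.6, against 52.2%), an interval that includes the batch's share. There the bin 30284001 to 30286001 had 10 fetal and 0 adult counts, a count of 0 that allows up to 3, and 30262001 to 30264001 had 10 and 1. From 400 to 500 kb the share was 40.3% (32.6 to 48.3, against 52.8%), and between 100 and 300 kb both bands had intervals that included the batch's share. Nearer than 100 kb there was a single contact, with 2 fetal and 11 adult counts. Apart from that contact, the bands whose intervals excluded the batch's share were those beyond 400 kb. From 400 to 500 kb 8 of 14 contacts were adult-only and 4 fetal-only, against 42.2% and 43.5% over the batch. From 500 kb it was 5 and 4 of 13, against 32.7% and 54.7%. These counts depend on the calls, since adult-only contacts are listed for their adult counts, and the intervals do not cover this selection.

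**Figure D2:**
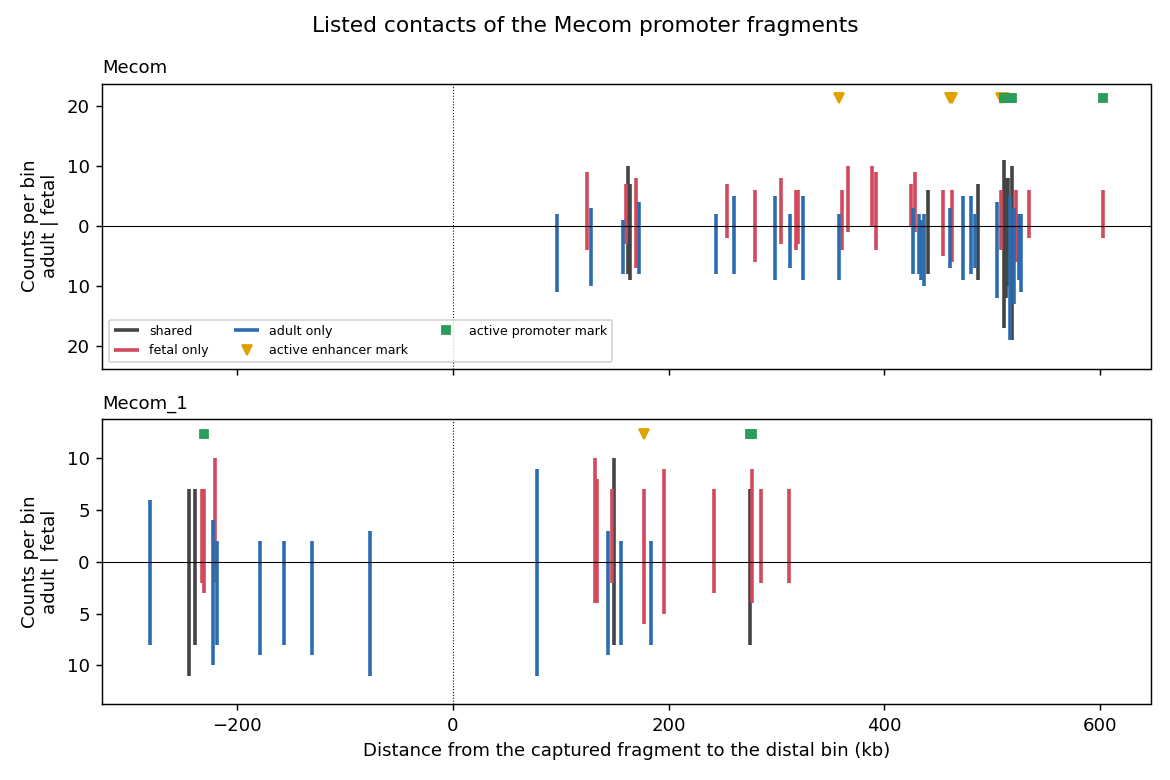
Counts per distal bin of the Mecom and Mecom_1 fragments, fetal upward and adult downward, against distance from the fragment in kb (negative values are lower coordinates). Line colour gives the class of the contact, triangles mark bins with an active enhancer mark and squares bins with an active promoter mark in either population; Mecom contacts lie on 1 side only, with the highest counts, 19 adult, at 516 and 518 kb.

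Both Mecom fragments met 8 of the gene's 70 distinct bins in common. The bins 30412001 to 30414001 and 30414001 to 30416001 were among them, so the region with the highest scores of Mecom was contacted from Mecom_1 too, at 276 and 278 kb. Mecom_1 had 7 fetal and 8 adult counts at the former and 9 fetal and 4 adult counts at the latter. The adult counts were thus the higher ones in both bins at Mecom and in the former at Mecom_1, and the difference between the fragments was not tested. Only 1 of the 8 common bins had the same class at both fragments, and 4 had opposite classes. At 30284001 to 30286001 both were fetal-only, with 10 fetal and 0 adult counts at Mecom and 7 and 2 at Mecom_1. Mecom_1 also had shared contacts at 29892001 to 29894001 (7 fetal and 11 adult counts, adult score 3.36, its highest) and 29898001 to 29900001 (7 and 8 counts), which lie near the Mecom fragment on its lower and higher side. No bin of the 5 lists held a captured fragment of another gene. The highest fetal score of Mecom_1 was 3.31, at 29916001 to 29918001, with 10 fetal and 2 adult counts. The next was 3.04, at 30286001 to 30288001, with 10 and 8 counts, and the bin 30268001 to 30270001 had 10 fetal counts too, against 4. On the adult side the scores after 3.36 were 2.65 at 29914001 to 29916001 (4 fetal and 10 adult counts) and 1.97 at 29958001 to 29960001 (2 and 9). The bins 30060001 to 30062001 and 30214001 to 30216001 equalled its highest adult count of 11, with 3 and 9 fetal counts. Its farthest contacts were 312 kb away in fetal cells (30448001 to 30450001, 7 and 2 counts) and 280.3 kb away in adult cells (29856001 to 29858001, 6 and 8 counts). No score of Mecom_1 came near the 11.0 of Mecom.

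By count the nearest listed bin of each Hlf fragment, an enhancer bin, stood highest, while the highest scores lay in bins farther out. The bin 90278001 to 90280001, an active enhancer and open in both populations, had the highest count at each fragment. Hlf had 27 fetal and 40 adult counts there at 28.6 kb, Hlf_1 60 and 72 at 26.4 kb, and Hlf_2 30 and 26 at 29.6 kb. It was called in fetal cells at all 3 fragments and in adult cells at Hlf and Hlf_1, while at Hlf_2 its 26 adult counts were not called. Its scores were 1.52 (fetal) and 3.01 (adult) at Hlf, 4.35 and 5.77 at Hlf_1, and 1.51 (fetal) at Hlf_2. The fetal scores at Hlf and Hlf_2 were thus close to the lowest called score of 1.3. Over the 3 fragments the counts came to 117 fetal and 138 adult. The higher-coordinate side, again upstream on the minus strand, held 16 of 19 contacts of Hlf, 33 of 37 of Hlf_1 and 16 of 17 of Hlf_2. Such a lean to 1 side was common in the batch. Of 908 promoters with at least 20 listed contacts, a number that Hlf and Hlf_2 do not reach, 288 (31.7%) had at least 86% on 1 side. Median distances (fetal, then adult) were 212 and 229.6 kb at Hlf, 210.4 and 160.4 kb at Hlf_1, and 226 and 227 kb at Hlf_2. Each of these pairs had overlapping intervals of the median.

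A group of bins lay more than 200 kb away on the higher side. At 90498001 to 90500001, a bin marked as active promoter in both populations, every fragment was called in every population. Its counts were 14 fetal and 11 adult at Hlf, 22 and 15 at Hlf_1 and 9 and 12 at Hlf_2. The fetal score of 12.96 at Hlf_1 was the highest of all 151 contacts. The bin 90478001 to 90480001, open in both populations, was the only other one called everywhere. It had 9 fetal and 11 adult counts at Hlf, 16 and 12 at Hlf_1 and 10 and 22 at Hlf_2, with an adult score of 8.71 at Hlf_2. Next to it, 90480001 to 90482001 had 12 and 10 counts at Hlf, 12 and 8 at Hlf_1 and 13 and 15 at Hlf_2. It had the highest fetal score of Hlf_2, 4.75. The bin 90500001 to 90502001, also an active promoter in both populations, was called in fetal cells at every fragment but in adult cells at Hlf_1 only. Its counts were 6 fetal and 5 adult at Hlf, 15 and 10 at Hlf_1, and 7 and 7 at Hlf_2.

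Other bins differed among the fragments. The highest adult score of Hlf, 7.38, was at the enhancer bin 90418001 to 90420001, with 17 adult and 9 fetal counts, a bin not listed for Hlf_1 or Hlf_2. The highest adult score of Hlf_1, 7.84, was at 90484001 to 90486001, with 20 adult and 3 fetal counts. Hlf had 12 fetal and 10 adult counts in that same bin and was called in both populations. Between 100 and 200 kb Hlf_1 had 10 adult-only and 3 fetal-only contacts of 18, against 33.5% adult-only and 38.2% fetal-only over the batch in that band, and 121 fetal against 193 adult counts (38.5%, 33.1 to 44.2, against 53.7% for the batch). In that band Hlf had 65 fetal and 64 adult counts (50.4%, 41.5 to 59.3) and Hlf_2 47 and 50 (48.5%, 38.2 to 58.8), intervals that included 53.7%. The lean of Hlf_1 to adult counts at this range was thus not seen beyond counting error in the listed contacts of the adjacent fragments. Those were 9 at Hlf and 6 at Hlf_2, in part other bins, and counts of unlisted bins are not known. The counts of Hlf_1 come from the same contacts as its classes, so they are not a second sign of a lean. The farthest contact, 403 kb to the lower side at an enhancer bin (89846001 to 89848001), was called in both populations at Hlf, with 8 fetal and 7 adult counts, and not listed for the other fragments. Hlf_1 reached 296 kb in fetal cells (90548001 to 90550001, 10 fetal and 3 adult counts) and 284 kb in adult cells (90536001 to 90538001, 3 and 9 counts). Hlf_2 reached 263.6 kb in fetal cells (90512001 to 90514001, 9 and 2 counts), and its farthest adult contact was the active promoter bin at 249.6 kb. Hlf_2 also had a fetal-only contact at 90470001 to 90472001 with a score of 3.31 (11 fetal and 4 adult counts).

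Because the 3 Hlf fragments lie within 5 kb, bins they share show how far a class recurs between neighbours in the same libraries. Of 46 distinct bins 8 were listed at all 3 fragments and 11 at exactly 2. Hlf and Hlf_1 had 15 bins in common, of which 4 had the same class and 4 had opposite classes. For Hlf and Hlf_2 the numbers were 5 and 2 of 8, and for Hlf_1 and Hlf_2 they were 4 and 0 of 12. The enhancer bin 90476001 to 90478001, for example, was fetal-only at Hlf (8 fetal and 7 adult counts), shared at Hlf_1 (13 and 16) and adult-only at Hlf_2 (6 and 13). The bins 90478001 to 90480001 and 90498001 to 90500001 kept the class shared at every fragment. The fragments share libraries and are not replicates.

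**Figure D3:**
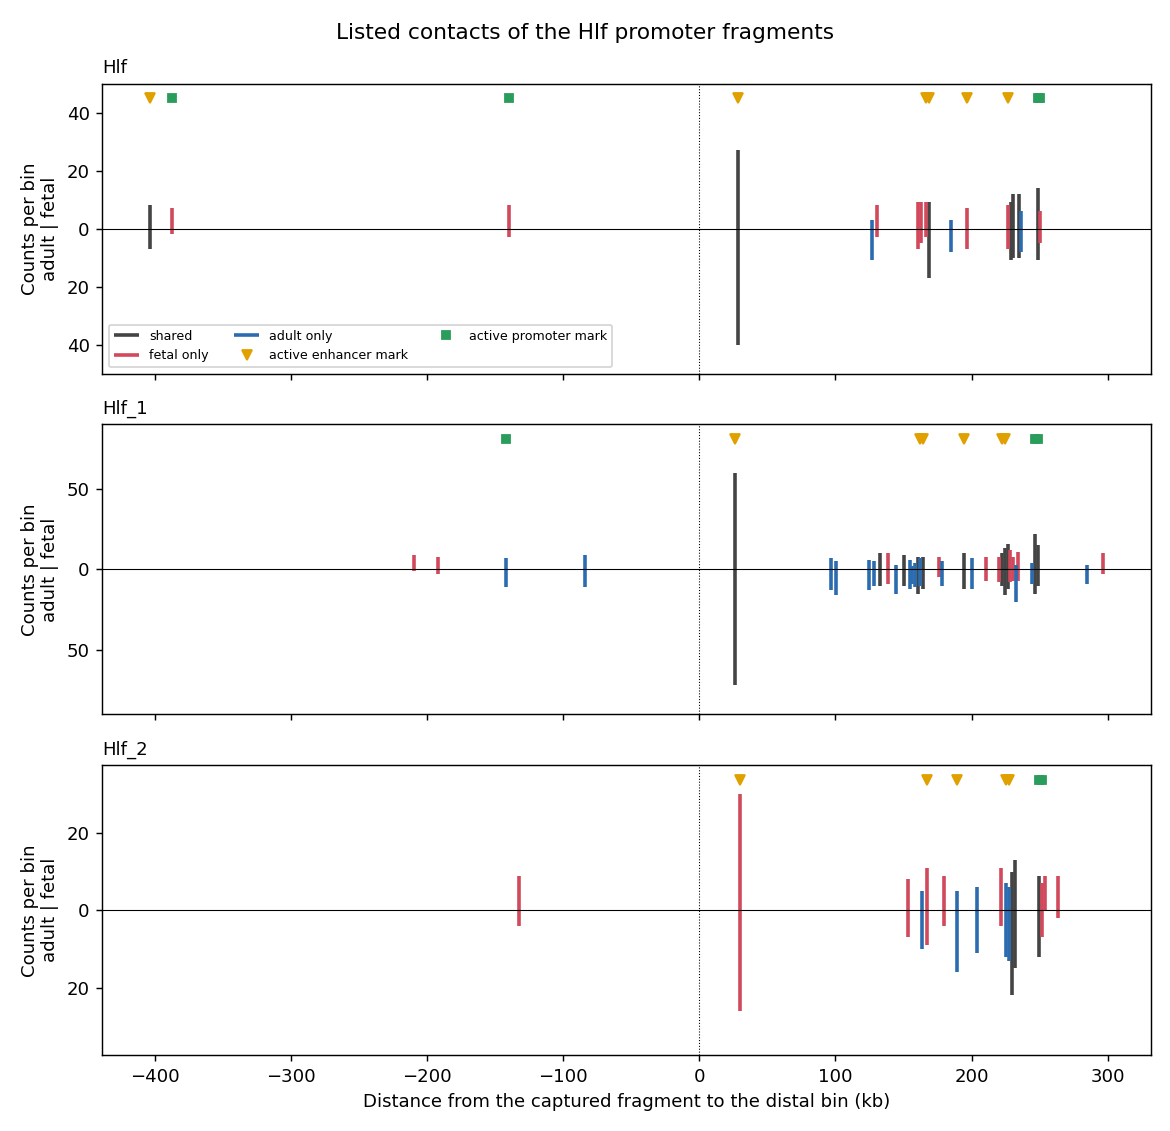
Counts per distal bin of the Hlf, Hlf_1 and Hlf_2 fragments, fetal upward and adult downward, against distance from the fragment in kb (negative values are lower coordinates); the vertical scale differs between panels. Colours and symbols are those of the Mecom plot, with triangles for active enhancer marks and squares for active promoter marks in either population. The tallest line of each panel is the enhancer bin at 26.4 to 29.6 kb.

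In fetal cells the share of calls in open bins was 27.3% at Mecom and 61.2% at Hlf. The fetal intervals did not overlap, while the adult ones did, but both count a bin once per fragment. At Hlf 6 bins were called in fetal cells from 3 fragments and 5 from 2, against 2 bins from both fragments at Mecom. Intervals over distinct called bins were not computed, so the lack of overlap is not read as a difference between the genes. The authors marked each bin as open (ATAC) or as an active, bivalent, primed or poised element in each population. Of Mecom's fetal calls, over both fragments, 12 of 44 fell in bins open in fetal cells (27.3%, 14.96 to 42.8), against 53.0% of first-batch fetal calls. For adult calls it was 20 of 46 (43.5%, 28.9 to 58.9), against 54.6%, an interval that includes the batch's share. Active enhancers took 2 of 44 fetal calls (4.55%, 0.555 to 15.5, against 12.7%) and 1 of 46 adult calls (2.17%, 0.0550 to 11.5, against 13.1%), and only the adult interval lay below the batch's share. Active promoters took 4 fetal calls (9.09%, against 15.6%) and 5 adult calls (10.9%, against 18.3%), with intervals that include the batch's shares. Of the 70 distinct bins met by Mecom promoters 41 were open in neither population (58.6%), as were 20 of 46 at Hlf (43.5%). The same share over the batch was not computed. The primed enhancer mark was on 3 of 46 adult calls (6.52%, 1.37 to 17.9, against 1.36%) and 0 of 44 fetal calls (against 1.77%). No bin of either gene was marked as bivalent promoter, a mark on 1.52% of fetal and 0.724% of adult first-batch calls, or as poised enhancer (0.713% and 0.314%).

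Bins open in adult cells alone took a larger share of Mecom's contacts than of the batch's. There were 14 such contacts of 78 (17.9%, 10.2 to 28.3), in 12 distinct bins, against 5.25% of first-batch contacts. Bins open in fetal cells alone took 2 contacts (2.56%, 0.312 to 8.96, against 7.14%). Of the 8 such contacts at the Mecom fragment 4 lay within 30058001 to 30070001 and 3 within 30214001 to 30222001. The 6 at Mecom_1 were scattered from 29892001 to 30216001. Of the 14 contacts 6 were adult-only, 5 fetal-only and 3 shared, and over the batch such bins were 38.2% adult-only and 39.7% fetal-only. All 4 distinct bins with a primed enhancer mark carried it in adult cells only. The active promoter mark was on 4 contacts in adult cells alone (5.13%, 1.41 to 12.6, against 1.74%) and on 1 in fetal cells alone (1.28%, against 0.981%), and the adult ones were the neighbouring bins at 30412001 to 30416001 seen from both fragments.

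At Hlf, 30 of 49 fetal calls fell in open bins (61.2%, 46.2 to 74.8), and in adult cells it was 28 of 45 (62.2%, 46.5 to 76.2), intervals that include 53.0% and 54.6%. Active enhancers took 11 fetal calls (22.4%, 11.8 to 36.6, against 12.7%) and 12 adult calls (26.7%, 14.6 to 41.9, against 13.1%). The adult interval lay above the batch's share and the fetal interval included it. The 3 fragments count the same enhancers repeatedly, since 9 of the 46 distinct bins carried the mark in either population, 7 of them in both and 2 in adult cells only. These 2 were 90438001 to 90440001, adult-only at Hlf_2 with 16 adult and 5 fetal counts, and 90446001 to 90448001, shared at Hlf_1 (10 fetal and 12 adult counts) and fetal-only at Hlf (7 and 7). A bin marked in adult cells alone was thus called in fetal cells alone at 1 fragment. As contacts these made 3 of 73 (4.11%, against 3.23%), and 0 of 73 had the mark in fetal cells alone (against 4.24%). Among the enhancer bins marked in both, 90416001 to 90418001 had 9 fetal and 3 adult counts at Hlf, 8 and 12 at Hlf_1 and 11 and 9 at Hlf_2, where its fetal score was 3.12. The adjoining 90414001 to 90416001 was listed at Hlf_1 alone, with 7 and 10 counts. The bin 90474001 to 90476001 had 10 and 10 counts at Hlf_1 and 7 and 12 at Hlf_2.

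Of Mecom's 6 enhancer-marked bins, 2 carried the mark in both populations, 2 in fetal cells only and 2 in adult cells only. The bin 30356001 to 30358001, marked in both, was adult-only with 7 adult and 3 fetal counts, and 30404001 to 30406001, also marked in both, was fetal-only with 6 fetal and 4 adult counts. The fetal-marked bin 30406001 to 30408001, described above, was called in both. At 30254001 to 30256001, also marked in fetal cells only, the contact was adult-only, with 9 adult and 2 fetal counts. The bins marked in adult cells only, 30358001 to 30360001 and, at Mecom_1, 30314001 to 30316001, were fetal-only, with 6 fetal and 6 adult counts and with 7 and 6.

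**Figure D4:**
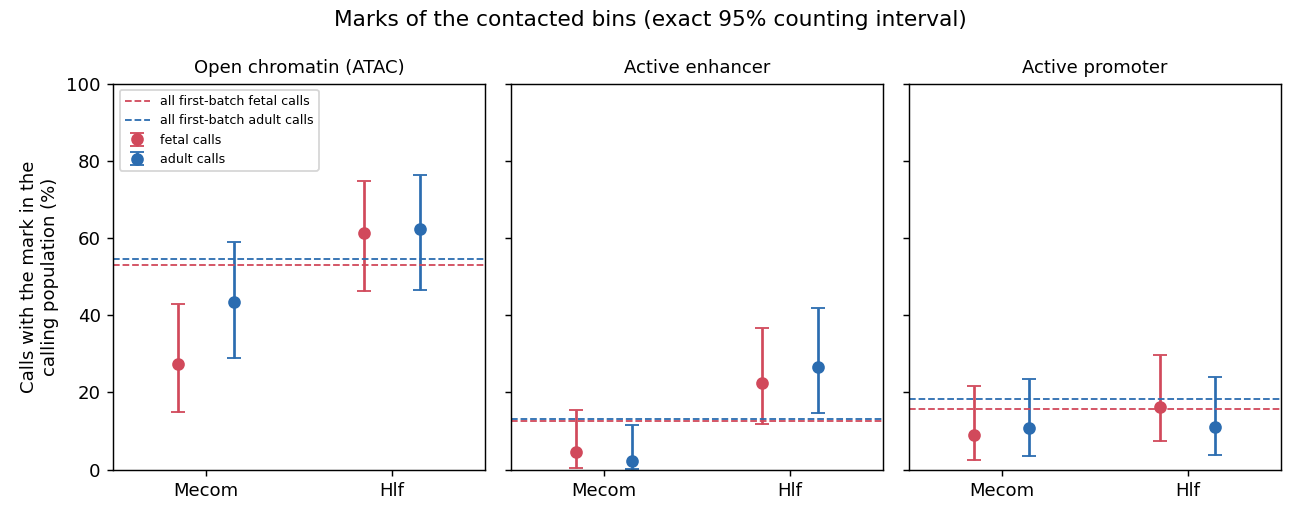
Share of fetal and adult calls (percent, with the exact 95% counting interval) whose distal bin carries the mark in the calling population, over the 2 Mecom and the 3 Hlf fragments; dashed lines are the shares over all first-batch calls. Mecom's fetal share of open bins (27.3%) lies below the batch's line, and Hlf's adult share of active enhancers (26.7%) above it.

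RefSeq's order of protein-coding genes in GRCm38 places Egfem1 on the lower and Actrt3 on the higher side of Mecom, and Mmd on the lower and Stxbp4 and then Cox11 on the higher side of Hlf. None of these 5 genes had a captured promoter in the table. Without an mm9 annotation the active promoter bins at 510 kb from Mecom and 248 kb from Hlf were not assigned to a gene. They may belong to neighbouring genes or to Mecom and Hlf themselves. In GRCm38 the window of Mecom start 1 (from 30509760) lies on the higher-coordinate side of that of start 2 (from 30013205). Whether the contacts of the Mecom fragment lie inside the gene or reach its other start was not tested.

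Promoters of the same batch most like each member in the percentile ranks of fetal calls, adult calls, fetal FPKM and adult FPKM were found by Euclidean distance over these 4 ranks. For Mecom they were Mina (32 fetal and 30 adult calls), Cdc5l (29 and 30) and Gabpa (29 and 31), for Mecom_1 Ash2l, Plcg1 and Slc39a1. For Hlf they included Por (16 and 11 calls) and Stk16 (13 and 12), for Hlf_1 Tnfrsf1a, Cdk5rap3 and Akt2_1, and for Hlf_2 Ncoa4_1, Naa10 and Psme2. Rank distances ran from 4.37 to 9.95. The likeness covers 4 values per promoter and says nothing of function.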

How the data were processed

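Per the submitters' processing notes, Trim Galore 0.41, Bowtie2 2.2.2 and the mm9 build were used; the name of the deposited table gives LiMACC as the caller. The authors deposited whole-number counts per contact and population, with no statement of how the 2 libraries of a batch were combined, and a score per contact and population whose scale is not stated. They also deposited FPKM values and 0 or 1 marks of distal bins from other assays, made in ways not given in the sources used here. Every column of values could be assigned, leaving 0 unassigned.

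Here (Python 3.11.15, pandas 2.3.3, scipy 1.17.1) contacts were grouped by promoter, and distance ran between the middles of fragment and bin. First-batch contacts within a chromosome held 892529 fetal and 759999 adult counts; these cover listed contacts only and are not library depths. Expression ratios are log2(FPKM + 1). No test was possible on pooled values. The classes, distances, merging and intervals were tested on simulated data. The named bins are those with the highest scores or counts, the farthest, and those with enhancer marks; members and lists were chosen with earlier results of these data known. Some genes of these lists are not reported here.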

Additional observations from a re-analysis of the deposited data

How the results depend on the processing

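No paired analysis was possible because the table gives 1 value per population and batch; for the same reason leaving out each library was not run. Of 101 recomputed values 67 stayed within the main interval or within 1.5 times the main number, 34 moved, and no signed ratio changed sign. The order of fetal and adult call numbers did turn at some promoters under the stricter score and under merging, given next. The cause of these moves was not tested. Among the 67 are all values kept at least 20 kb from the promoter, which could not change, since the nearest listed contact lay at 26.4 kb. They cover fetal calls, adult calls and both median distances at each of the 5 promoters, so the 67 overstates how stable the values are.

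With a score 1 unit higher (2.3), fetal calls became 13 at Mecom, 5 at Mecom_1, 9 at Hlf, 10 at Hlf_1 and 5 at Hlf_2. Adult calls became 14 at Mecom, 2 at Mecom_1, 7 at Hlf, 15 at Hlf_1 and 6 at Hlf_2. Hlf_2 thus no longer had more fetal than adult calls. Shared calls became 5 at Mecom, 0 at Mecom_1 and 5 at Hlf_1. The adult median distance of Mecom rose to 507 kb, no adult enhancer call (0%) remained at Mecom, and 75% of Hlf's fetal calls were open. Counting marks in neighbouring listed bins too gave 77.6% for that last share. Merging called bins up to 5 kb apart left 16 fetal and 15 adult contacts at Mecom and 10 and 11 at Mecom_1. It left 9 and 7 at Hlf, 12 and 11 at Hlf_1 and 9 and 5 at Hlf_2. Hlf_1 and Mecom then no longer had more adult than fetal contacts, and Mecom_1 no longer had more fetal than adult contacts.

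Matching bins up to 5 kb apart raised the fetal calls with an adult partner to 22 at Mecom, 9 at Mecom_1, 12 at Hlf, 17 at Hlf_1 and 7 at Hlf_2. Matching up to 20 kb apart raised them to 25, 14, 15, 19 and 10. No batch value of either matching was computed, and a wider match adds partners wherever called bins lie close together. With contacts called in both populations only, the log2 ratio of counts, scaled to the batch's sums, moved from -0.55 to -0.33 at Hlf_1 and from -0.32 to -0.85 at Hlf_2. Scaling by the median ratio of shared contacts shifts every such ratio by 0.14. Mecom (-0.65 to -0.52) and Hlf_1 (-0.55 to -0.41) then kept intervals below 0, and those of Mecom_1 and Hlf_2 came to include 0. Called contacts at these promoters rest on medians of 7 to 12.5 counts, which limits single bins.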
